A study of Mus musculus with 6 samples.

Results

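Glutathione, thioredoxin and related antioxidant genes were examined in 6 olfactory sensory neurons, nerve cells that line the nose and detect odours, each profiled on its own. The members were the genes whose names put them among the glutathione S-transferases, peroxiredoxins, glutathione peroxidases, superoxide dismutases, thioredoxin and thioredoxin-like genes, glutaredoxins, glutamate-cysteine ligase subunits, heme oxygenases, NAD(P)H quinone dehydrogenases and catalase, with names of pseudogenes left out. This gave 69 of the 55341 genes counted. The neurons came from wild-type C57BL/6 mice aged 6 weeks, were frozen singly after a physiological recording, and each gave 1 CEL-Seq2 library, called cell 1 to cell 6 here (OSN1 to OSN6 in the labels). They form 1 group with no treated, mutant or other reference cells, and the labels name no animals, so no test between groups was possible and each value is given with its counting error.

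The libraries held 8613, 34478, 122546, 60902, 22525 and 11725 counts in cells 1 to 6. A single count was therefore worth 116 CPM (each gene's count scaled to a common library total) in cell 1 and 8.16 CPM in cell 3. Taken as 3 counts, the limit that a count of 0 allows was 348 CPM in cell 1, 256 CPM in cell 6 and 24.5 CPM in cell 3. Mature olfactory neuron markers summed to between 16204 and 30883.5 CPM in the 6 cells, and 6 of the 8 had a count in every cell, with Cnga2 and Ano2 at 0 in cell 6. In cell 2 gland and secretory markers (32165 CPM) exceeded those of mature neurons (17402 CPM). Immature neuron markers summed to 116, 754, 49.0, 1215, 755 and 1535 CPM in cells 1 to 6. Markers of red blood cells summed to between 171 CPM in cell 6 and 12610.4 CPM in cell 4. CEL-Seq2 tags the 3' end of a transcript, so CPM were not divided by transcript length except where stated. Orders between genes are orders of tagged ends.

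Cells that burn oxygen produce superoxide and hydrogen peroxide. Superoxide dismutases turn superoxide into hydrogen peroxide. Peroxiredoxins, glutathione peroxidases and catalase then remove the peroxide. Peroxiredoxins are recharged by thioredoxin, which draws electrons from NADPH through thioredoxin reductase, while glutathione is made in a first step by glutamate-cysteine ligase and is used by peroxidases, glutaredoxins and S-transferases. Many of these genes are known targets of the transcription factor NRF2 (Nfe2l2), which binds antioxidant response elements. In the olfactory epithelium, alpha and mu class S-transferases and Prdx6 are known from the supporting sustentacular cells and from glands, where odorants and toxins are broken down.

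As a group the antioxidant genes took between 0.249% (cell 5) and 0.392% (cell 6) of each neuron's counts. They summed to 24, 126, 388, 206, 56 and 46 counts, or 2786, 3654.5, 3166, 3382, 2486 and 3923 CPM in cells 1 to 6. The median was 3274 CPM, with an SD of 536 CPM over the 6 cells. By library totals, cell 6 was highest (95% Poisson interval 2872 to 5233 CPM) and cell 5 lowest (1878 to 3228 CPM). Those intervals overlapped, but overlap does not test the ratio of these cells, which was not computed for the sum. On the log2 scale, edgeR TMM scaling and DESeq2 size factors moved cell 6 by -0.654 and -0.776. They moved cell 2 by 0.372 and 0.400, so the order of the cells depended on the scaling. The variance of the sum over cells was 1.72 times that of counting alone, and several single members varied more.

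Of the 69 genes, 43 had a count in at least 1 cell and 26 had none. Among all genes the share with a count in at least 1 cell was 29.8%, and among protein-coding genes it was 49.8%. The members with counts in all 6 cells were 3: Sod1, Txnrd1 and Glrx3. That is against 1.5% of all genes and 2.89% of protein-coding genes. In cells 1 to 6, 14, 34, 31, 25, 22 and 13 members were found, fewest in the shallow cells 1 and 6, and more in cell 2 than in cell 3, the deepest. All genes with a count numbered 3058, 7728, 11670, 9584, 6382 and 2855 in cells 1 to 6. With every cell thinned to 8613 counts, the members found were 14, 18, 15.5, 13, 12 and 12 (medians of 20 draws). No number of all genes per cell was set beside these after thinning. Whether cell 2 differed in the members more than in other genes was not tested. The 7 genes with the most counts gave 432 of the 846 antioxidant counts, or 51.1%.

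**Figure D1:**
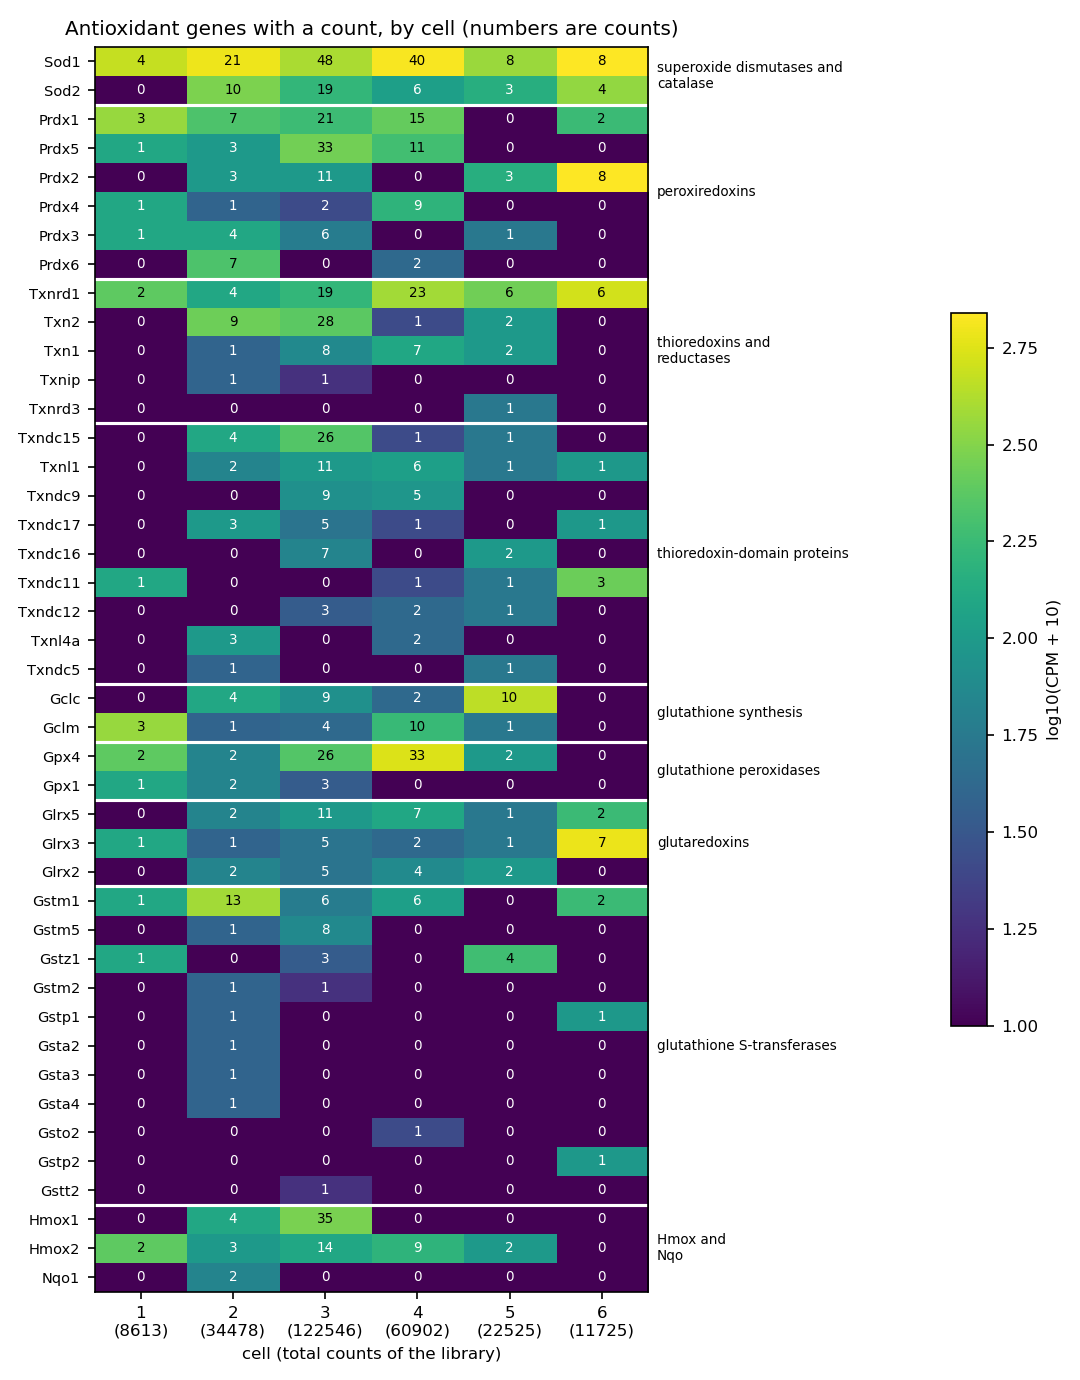
Counts (printed numbers) and levels (colour, log10 of CPM plus 10) of the 43 antioxidant genes with a count, in rows grouped by role, for cells 1 to 6 in columns. Sod1 holds between 4 and 48 counts in each cell, while Hmox1, Prdx2 and Glrx3 stand out in single cells.

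Superoxide dismutases came down to the cytosolic enzyme Sod1 and the mitochondrial enzyme Sod2. Sod1, on chromosome 16 of GRCm38 (90220754 to 90226329, plus strand), had 4, 21, 48, 40, 8 and 8 counts in cells 1 to 6, which is 464, 609, 392, 657, 355 and 682 CPM. Its median was 537 CPM with an SD of 141 CPM, and no other member had more counts, with 129 of 846 (15.2%). Within the cells it made up between 12.4% and 19.4% of the antioxidant counts. The exact intervals of all 6 cells overlapped. Of the deepest libraries, cell 3 had less Sod1 than cell 4 by library totals, with a ratio of 0.596 (95% conditional interval 0.384 to 0.931). On the log2 scale, edgeR TMM scaling moved cells 3 and 4 by 0.537 and 0.309, and DESeq2 size factors by 0.909 and 0.464. Both narrow the difference, and the ratio was not computed under them. Like the ratios given below, this pair was picked from all pairs of cells, and the interval makes no allowance for that. Per kilobase of the longest annotated transcript, Sod1 came second with a pooled level of 125 CPM, after Gpx4 with 250.5 CPM. Those transcripts have 3970 and 995 bases. With tagged 3' ends, this division gives no order of transcript levels.

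Sod2 had 0, 10, 19, 6, 3 and 4 counts in cells 1 to 6, with a median of 144 CPM. The extracellular Sod3 and catalase (Cat) had no count in any cell. Over the 260789 counts of all cells, 3 counts would be 11.5 CPM. Ccs, the copper chaperone that loads Sod1, had 13 counts in cell 3 and 0 in the other cells.

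A pseudogene resembling Sod1 also had counts. Gm8566, a processed pseudogene on chromosome 6 (67205619 to 67206083), holds 17.5% of the 50-base windows at the 3' end of Sod1 transcripts. It had 2, 20, 35, 18, 6 and 6 counts in cells 1 to 6, fewer than Sod1 in each cell. Added together they gave 697, 1189, 677, 952, 622 and 1194 CPM, with a median of 824 CPM. Whether its counts are reads of Sod1 was not tested. Scaf4, which overlaps Sod1 on the other strand, had 0 counts in all 6 cells.

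All 6 peroxiredoxins were found, none of them in all 6 cells. Their summed level was lowest in cell 5 at 178 CPM and highest in cell 6 at 853 CPM, around a median of 652 CPM. Prdx1, a cytosolic enzyme, had 3, 7, 21, 15, 0 and 2 counts in cells 1 to 6. In the 5 cells with a count its level lay between 171 and 348 CPM. Cell 5 stood apart with 0 counts, where 4.54 would fall at the rate of the remaining cells pooled. At 3 counts, 133 CPM would remain possible there, against a pooled 201 CPM in the other cells. Other genes, pseudogenes among them, hold 13.6% of the sequence windows at its 3' end.

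Prdx5, found in mitochondria, peroxisomes and cytosol, had 1, 3, 33, 11, 0 and 0 counts. Cell 3 was highest with 269 CPM, and again cell 5 had 0 where 4.54 counts would fall (2.92 with cell 3 left out of the rate). Its span overlaps Trmt112 on the other strand, which had 4 counts in cell 3. Prdx3, the mitochondrial form, had 1, 4, 6, 0, 1 and 0 counts. Prdx4, of the secretory pathway, had 9 counts in cell 4 and at most 2 in any other cell.

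Prdx2, which is known to be abundant in neurons and in red blood cells, was uneven across the cells. Its counts were 0, 3, 11, 0, 3 and 8 in cells 1 to 6. Cell 6 had 682 CPM (295 to 1344), against 89.8 CPM in cell 3 (44.8 to 161) and 0 in cell 4, where up to 49.3 CPM is allowed at 3 counts. The level in cell 6 was 13.9-fold that floor, and with the counting error of both cells the lower 95% limit of the ratio was 8.87. Cell 4 would hold 7.62 counts at the rate pooled over its companions. Red blood cell markers summed to 171 CPM in cell 6 and 12610.4 CPM in cell 4, and their part in the Prdx2 counts was not tested. Prdx2 lies on chromosome 8 (84969587 to 84974834, plus strand) and overlaps Junb on the other strand. Junb had 0, 7, 0, 1, 2 and 0 counts in cells 1 to 6, and the part of its reads in the Prdx2 counts was not tested.

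The thioredoxin and reductase genes gave an even sum. They had 232, 435, 457, 509, 488 and 512 CPM in cells 1 to 6. The 2 counts in cell 1 carried an interval of 28.1 to 839 CPM, which covers the other cells. Txnrd1, the cytosolic thioredoxin reductase and a selenoprotein, lies on chromosome 10 (82833951 to 82897712, plus strand) and had 2, 4, 19, 23, 6 and 6 counts, or 232, 116, 155, 378, 266 and 512 CPM. Cells 4 and 6 were highest. Txnrd2 had no count and Txnrd3 had 1.

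Txn2, the mitochondrial thioredoxin, had 0, 9, 28, 1, 2 and 0 counts in cells 1 to 6. Cells 2 and 3 were alike with 261 and 229 CPM, against 16.4 CPM in cell 4, and the ratio of cell 3 to cell 4 was 13.9 (95% interval 2.301 to 569). Txn1, the cytosolic thioredoxin, named after its values were seen, had 0, 1, 8, 7, 2 and 0 counts and reached 115 CPM in cell 4. In cell 4, then, Txn1 had 7 counts to 1 of Txn2, while cell 3 had 8 to 28. Txnip, which binds and inhibits thioredoxin, had 2 counts in all.

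Proteins with a thioredoxin fold outside the core system were found for 9 of 12 genes and had a median sum of 344 CPM. Txnl1, a cytosolic thioredoxin-like protein, had 0, 2, 11, 6, 1 and 1 counts, and in the 5 cells with a count it lay between 44.4 and 98.5 CPM. Txndc15, a transmembrane protein, had 0, 4, 26, 1, 1 and 0 counts. It was highest in cell 3, with 212 CPM, and had 16.4 CPM in cell 4, the same pair of cells that differed in Txn2. Txndc9, Txndc16, Txndc17, Txndc11, Txndc12, Txnl4a and Txndc5 had between 2 and 14 counts each over all cells, and Txndc2, Txndc8 and Txnl4b had none.

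**Figure D2:**
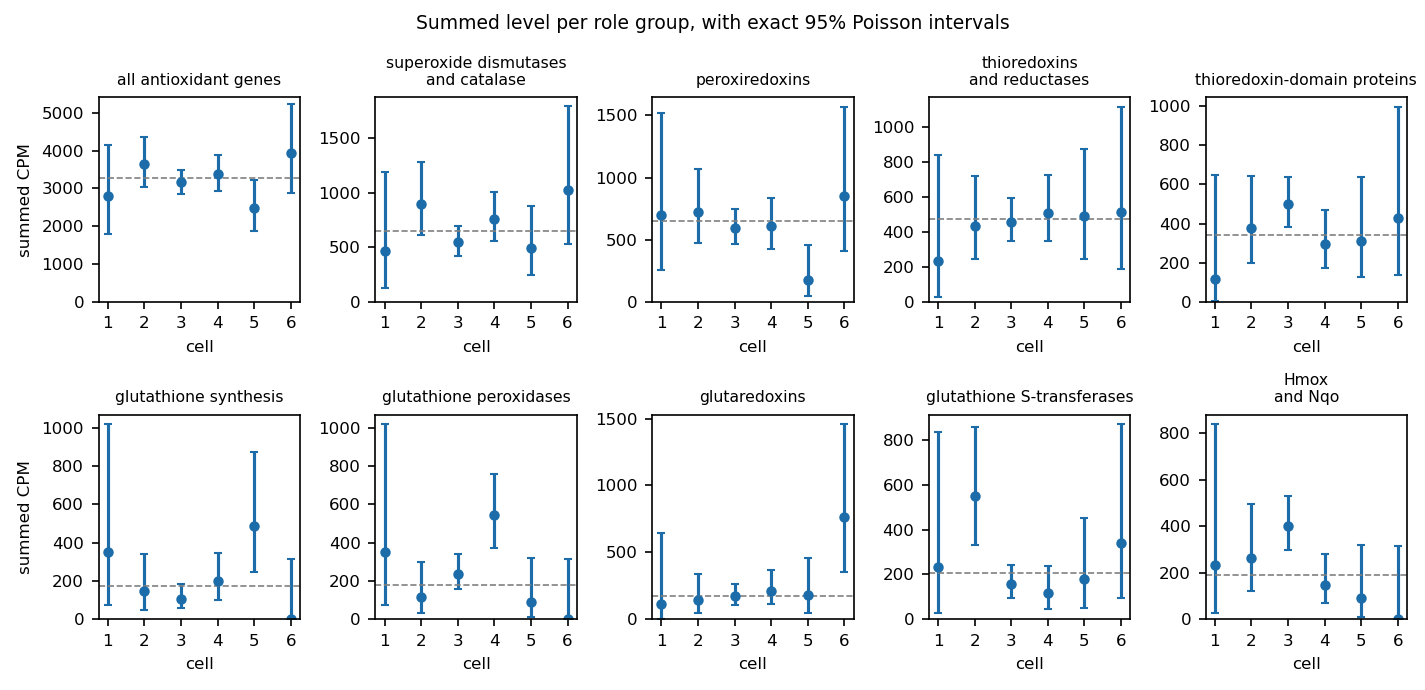
Summed level in CPM (vertical axis, starting at 0) of all antioxidant genes and of each role group in cells 1 to 6 (horizontal axis). Points are single cells, bars are exact 95% Poisson intervals and the dashed line is the median of the cells, 3274 CPM for all genes and 473 CPM for thioredoxins and reductases.

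The subunits of glutamate-cysteine ligase differed in their ratio between cells 4 and 5. Gclc, the catalytic subunit of glutamate-cysteine ligase (chromosome 9, 77754535 to 77794485, plus strand), had 0, 4, 9, 2, 10 and 0 counts in cells 1 to 6. Cell 5 had 444 CPM (213 to 816), against 32.8 CPM in cell 4 (3.98 to 119), a ratio of 13.5 (95% interval 2.88 to 127). Gclm, the modifier subunit, had 3, 1, 4, 10, 1 and 0 counts, which is 348 CPM in cell 1 (71.8 to 1018) and 164 CPM in cell 4 (78.7 to 302). Cell 4 had 10 counts of Gclm and 2 of Gclc, and cell 5 had 1 of Gclm and 10 of Gclc. Cells 2 and 3 had counts of both, cell 1 of Gclm alone, and cell 6 of neither. Other genes, Ppia and pseudogenes among them, hold 7.72% of the sequence windows at the 3' end of Gclm. The span of Gclm also overlaps the pseudogene Gm6061 on the same strand. For Gclc the share of such windows was 0%. The part of reads from those genes in the Gclm counts was not tested.

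Glutathione peroxidases were found for 2 of 8 genes, Gpx4 and Gpx1. Gpx4, the selenoprotein that reduces lipid peroxides (chromosome 10, 80047166 to 80056439, plus strand), had 2, 2, 26, 33, 2 and 0 counts in cells 1 to 6. Cell 4 had 542 CPM (373 to 761), against 212 CPM in cell 3 (139 to 311) and 58.0 CPM in cell 2 (7.03 to 209). The ratio of cell 4 to cell 3 was 2.55 (1.48 to 4.45). In cell 6, where Gpx4 had no count, 3.06 would fall at the rate of the others and 1.99 with cell 4 left out, so that a level below that of cells 1, 2, 3 and 5 was not detectable at this depth. Against cell 4 the ratio of cell 6 was 0 with an upper 95% limit of 0.614.

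A pseudogene of Gpx4 had counts as well. Gpx4-ps2, a transcribed processed pseudogene on chromosome 10 (45875291 to 45876086), had 2, 3, 35, 36, 4 and 0 counts, slightly more than Gpx4 in all, and 54.2% of the sequence windows at the 3' end of Gpx4 transcripts occur in another gene. Whether its counts are reads of Gpx4 was not tested. The sum of both had a median of 365 CPM and kept cell 4 highest, with 1133 CPM. Gpx1, the cytosolic glutathione peroxidase, had 6 counts in all, from cells 1, 2 and 3. Gpx2, Gpx3, Gpx5, Gpx6, Gpx7 and Gpx8 had none. Gsr, the glutathione reductase that recycles the oxidised form, had 1 count each in cells 2 and 3.

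**Figure D3:**
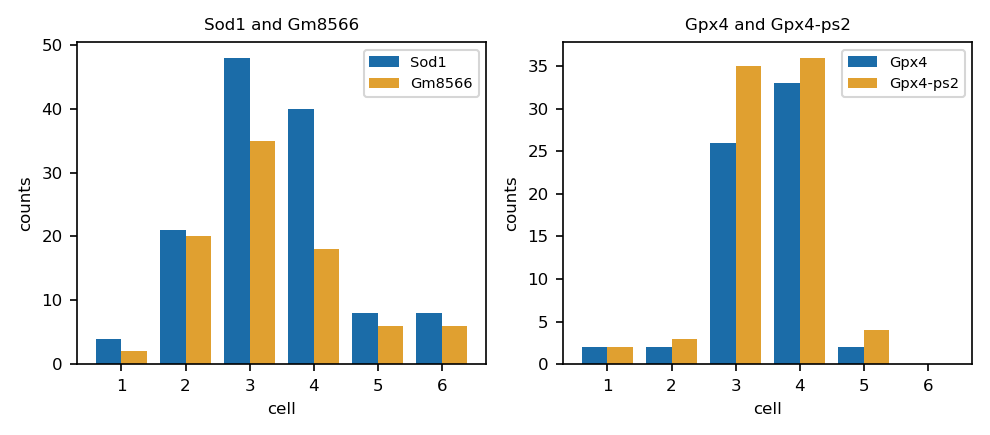
Counts (vertical axis) of Sod1 beside Gm8566 on the left and of Gpx4 beside Gpx4-ps2 on the right, in cells 1 to 6 (horizontal axis). Both pseudogenes have counts wherever the parent gene has them, with 87 counts against 129 for Sod1 and 80 against 65 for Gpx4.

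Glutaredoxins, which use glutathione to reduce protein disulfides or to carry iron-sulfur clusters, were found for 3 of 4 genes. Glrx3 had 1, 1, 5, 2, 1 and 7 counts in cells 1 to 6. Cell 6 stood apart with 597 CPM (240 to 1230), while the other cells lay between 29.0 and 116 CPM. Glrx5, the mitochondrial form, was even, with 0, 2, 11, 7, 1 and 2 counts. Glrx2 had 13 counts in all, and Glrx itself had none.

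Glutathione S-transferases, the largest family with 23 genes, were sparse. Of them 11 had a count, and together they had 55 counts. Gstm1, of the mu class (chromosome 3, 108012255 to 108017973, minus strand), gave 28 of these, with 1, 13, 6, 6, 0 and 2 counts in cells 1 to 6. Cell 2 was highest with 377 CPM (201 to 645), against 49.0 CPM in cell 3 (18.0 to 107). Gstm5 differed in its place, with 8 of its 9 counts in cell 3. Gstz1, of the zeta class, had 8 counts in all, of which 4 were in cell 5. The pi class genes Gstp1 and Gstp2 had 2 and 1 counts, the omega gene Gsto2 and the theta gene Gstt2 1 each. No count was found for Gsta1, Gstm3, Gstm4, Gstm6, Gstm7, Gstp3, Gstt1, Gstt3, Gstt4, Gstk1, Gsto1 and Gstcd.

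Heme oxygenases break down heme. The constitutive form Hmox2 was even, with 2, 3, 14, 9, 2 and 0 counts in cells 1 to 6 and 87.0 to 232 CPM where found. Its span overlaps Cdip1 on the other strand, which had 27 counts in cell 3, so that reads of both cannot be told apart where strand was not used. The inducible form Hmox1 (chromosome 8, 75093621 to 75100589, plus strand) was not. It had 0, 4, 35, 0, 0 and 0 counts, which is 286 CPM in cell 3 (199 to 397) and 116 CPM in cell 2 (31.6 to 297). In cell 4, the second deepest library, 0 counts allow up to 49.3 CPM at 3 counts. The level in cell 3 was 5.80-fold that floor. With the counting error of both cells, the lower 95% limit of the ratio was 4.47 for cell 3 over cell 4 and 1.65 for cell 3 over cell 5. For cells 1 and 6 the limit lay below 1, at 0.632 and 0.861, so that a difference from cell 3 was not detectable there.

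Hmox1 is also known from macrophages. Of the 5 macrophage markers 2 had a count, with Lyz2, C1qa and C1qb at 0 in all cells, and the sum lay between 0 and 49.0 CPM. Cell 3 held 5 of the 7 counts of Tyrobp. The part of macrophage RNA in the Hmox1 counts was not tested. Nqo1, a quinone reductase known from the dorsal zone of the epithelium, had 2 counts, both in cell 2, and Nqo2 had none.

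The members were also divided into genes usual in neurons and genes known from sustentacular cells or glands. Both lists were chosen with earlier results of these data known. A gene usual in neurons may be expressed in other cells too, and no reference cells were profiled. The shares of the lists therefore do not tell neuronal RNA from other RNA. The neuronal list of 16 genes held 578 of the 846 counts (68.3%), with all 16 genes found. It had 2090, 2146, 2073, 2676, 1376 and 3241 CPM in cells 1 to 6. The sustentacular and gland list of 13 genes held 51 counts (6.03%), with 7 genes found. It had 1, 25, 15, 8, 0 and 2 counts, or 116, 725, 122, 131, 0 and 171 CPM. The neuronal list had counts in every cell. The other list was highest in cell 2 (469 to 1070 CPM), whose interval did not overlap those of cells 3, 4 and 5 but did overlap those of cell 1 (2.94 to 647 CPM) and cell 6 (20.7 to 616 CPM). Immature neuron markers were highest in cells 6 and 4, the cells with the highest neuronal list, and their part in it was not tested.

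In cell 2, the 7 genes found were Gstm1 with 13 counts, Prdx6 with 7, and Gstm2, Gstm5, Gsta2, Gsta3 and Gsta4 with 1 each. The alpha class transferases had no count in any other cell. Prdx6, a peroxiredoxin that reduces phospholipid peroxides, had 203 CPM in cell 2 (81.6 to 418) and 0 in cell 3. Its level in cell 2 was 8.29-fold the floor of 3 counts in cell 3, with a lower 95% limit of the ratio of 5.12. Its remaining 2 counts were in cell 4. The 3' ends of Gsta1 and Gsta2 share 93.0% and 64.5% of their sequence windows with other genes, so that the count of Gsta2 is uncertain.

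Markers of sustentacular cells were highest in the same cell. The 10 markers, of which 6 had a count, summed to 0, 725, 106, 98.5, 44.4 and 171 CPM in cells 1 to 6. Cell 2 had 15 counts of Cyp2a5 and 7 of Cyp2g1, while Ugt2a1 and Cyp1a2 were at 0 in all cells. Gland and secretory markers, of which 8 of 10 had a count, summed to 6966, 32165, 971, 394, 5416 and 85.3 CPM. They were high in cells 1 and 5 too, where the list of sustentacular and gland antioxidant genes had 1 and 0 counts. The part of RNA from other cells in these counts was not tested. Without cell 2 the mean of the list over cells was 108 CPM, against 211 CPM with it.

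**Figure D4:**
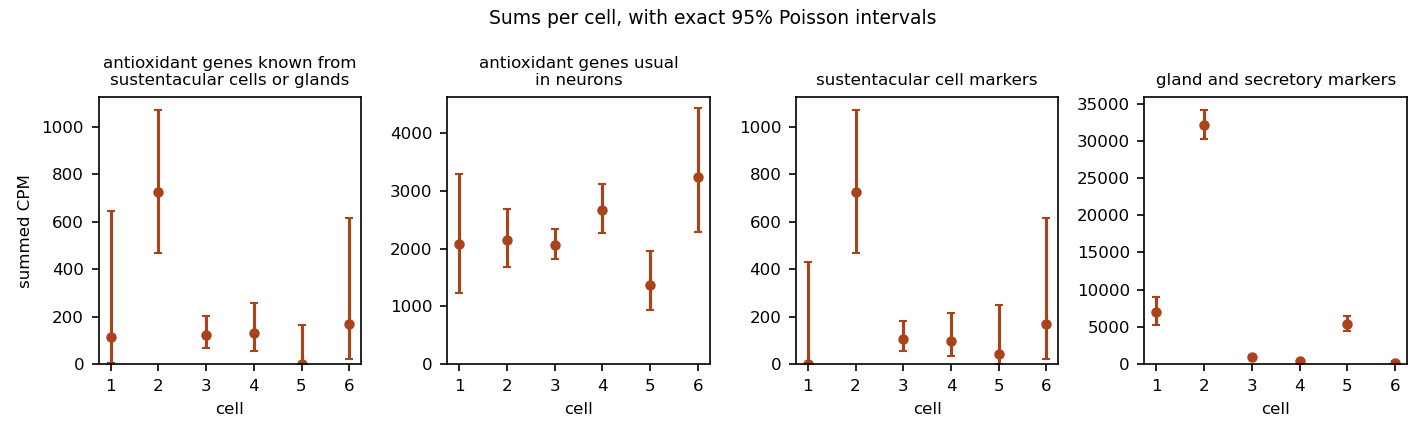
Summed CPM (vertical axes, each from 0 on its own scale) in cells 1 to 6 of the antioxidant genes known from sustentacular cells or glands, of those usual in neurons, and of sustentacular and gland markers. Bars are exact 95% Poisson intervals, and cell 2 is highest for the first list (725 CPM) and for both marker sets (725 and 32165 CPM), but not for the neuronal list.

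To set the spread between cells against counting error, a variance index was computed for genes with at least 20 counts, a measure chosen after the data were seen. The index divides the observed variance by the variance that counting alone gives, so that 1 means counting error alone. Of 15 antioxidant genes 9 (60.0%) had an index of at least 2, against 57.8% of 2901 genes, so the members were near the background. The lowest indices were those of Txnl1 (0.331), Glrx5 (0.601), Hmox2 (0.663), Prdx1 (1.38), Sod1 (1.70) and Sod2 (1.79). Txnl1, Glrx5 and Hmox2 had 21, 23 and 30 counts, against 129 for Sod1. At few counts, counting error can hide a spread between cells, so the order does not rank steadiness. The highest indices were those of Prdx2 (9.83), Gclc (6.75), Gpx4 (6.38), Hmox1 (6.19) and Gstm1 (6.03). If counts are reads and not molecules, amplification raises the index of every gene.

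**Figure D5:**
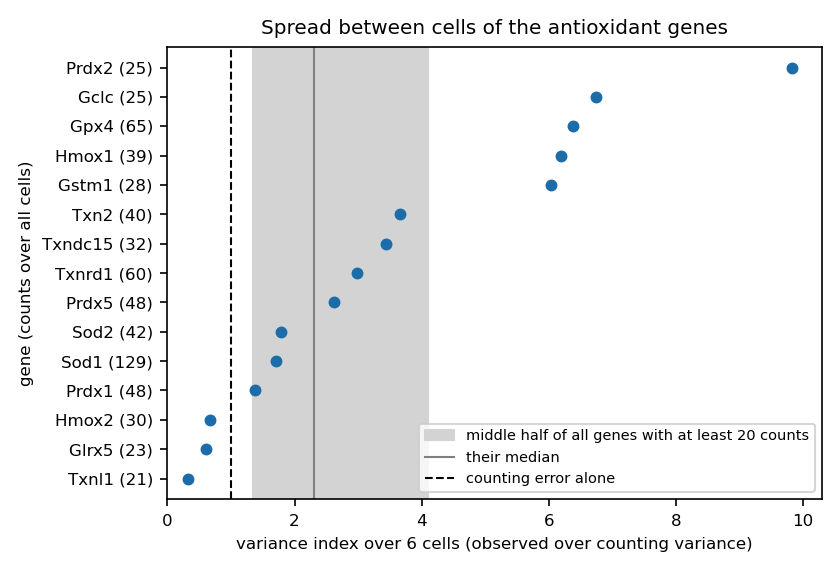
Variance index (horizontal axis, from 0) of the 15 antioxidant genes with at least 20 counts, with each gene's counts over all cells in brackets. The grey band is the middle 50% of 2901 genes (1.35 to 4.09), the grey line their median (2.31) and the dashed line counting error alone. Txnl1, Glrx5 and Hmox2 lie below 1 and 5 genes from Gstm1 (6.03) to Prdx2 (9.83) lie right of the band.

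Each cell was also set against the mean of the other 5 for the 12 members with a mean of at least 100 CPM, which is 12 of 69 genes and not the whole family. Of the 11 times a member was at least 2-fold higher in a cell, 7 were of members that reached this mean only through that cell, so the numbers of higher members are given as a description. In cell 6, 4 members were at least 2-fold higher, against 24.9% of 1919 genes, and 5 were at least 2-fold lower, against 42.2%. The higher ones were Sod2 and Txnrd1, and Glrx3 and Prdx2, which averaged 52.6 and 62.0 CPM in the other cells and entered only through cell 6. The lower ones were Gclc, Gclm, Gpx4, Hmox2 and Prdx5, each with 0 counts in a shallow library. In cell 5, 6 members were lower, against 27.4% of genes, and 1 was higher, against 15.6%, which was Gclc with an average of 44.5 CPM in the other cells. The lower ones included Prdx1, Prdx5 and Gstm1, each at 0.

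In cells 1 to 4 the numbers of higher members were 3, 1, 1 and 1, against 19.9%, 6.67%, 10.3% and 13.3% of genes. Those of lower members were 3, 4, 3 and 3, against 32.6%, 29.5%, 25.1% and 25.3%. The single higher genes were Gpx4 in cell 4 and, entering only through the cell in question, Gstm1 in cell 2 and Prdx5 in cell 3. In cell 1 they were Prdx1 and, through that cell alone, Gclm and Hmox2. The median member had a log2 ratio of -0.23, -0.36, -0.56, 0.41, -0.90 and 0.11 in cells 1 to 6, beside -0.16, -0.37, -0.29, -0.16, -0.13 and -0.45 for the 1919 genes. These medians moved with the scaling and with the filter on low values, and the sign of cells 2, 3, 4 and 6 changed under at least 1 alternative.

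Promoters of the members were searched for the core antioxidant response element, TGACNNNGC on either strand, in the 250 bases before and 50 bases after each annotated start (RefSeq, GRCm38.p6). Promoters were matched for 61 of the 69 genes, and 10 of their 86 promoters held the motif (11.6%), beside 12.4% of 32851 promoters of the same length. The members were therefore near the background. The 4 matches with the most counts are shown, since they include the genes of the superoxide, peroxide, thioredoxin and glutathione steps. Printed are the 250 bases before an annotated start of Sod1 (chr16:90220512-90220761), Txnrd1 (chr10:82858956-82859205), Prdx1 (chr4:116685349-116685598) and Gclm (chr3:122245307-122245556), all on the plus strand, 5' to 3'. Capitals mark the motif, which lies on the minus strand in each, so that it is printed as its reverse complement.
Sod1: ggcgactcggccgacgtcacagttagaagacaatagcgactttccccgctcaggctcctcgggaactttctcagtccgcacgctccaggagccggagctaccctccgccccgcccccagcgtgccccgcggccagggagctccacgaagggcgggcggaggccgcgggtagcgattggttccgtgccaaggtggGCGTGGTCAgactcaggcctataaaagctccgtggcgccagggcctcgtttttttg
Txnrd1: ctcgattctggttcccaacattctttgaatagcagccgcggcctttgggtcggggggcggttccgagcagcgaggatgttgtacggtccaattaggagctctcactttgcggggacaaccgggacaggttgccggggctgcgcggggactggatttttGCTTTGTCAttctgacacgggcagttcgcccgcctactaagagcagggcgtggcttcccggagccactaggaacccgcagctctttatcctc
Prdx1: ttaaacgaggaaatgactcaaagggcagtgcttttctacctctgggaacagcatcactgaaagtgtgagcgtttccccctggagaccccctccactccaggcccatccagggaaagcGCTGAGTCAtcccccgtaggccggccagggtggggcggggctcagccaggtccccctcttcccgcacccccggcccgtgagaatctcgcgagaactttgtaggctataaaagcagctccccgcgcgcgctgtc
Gclm: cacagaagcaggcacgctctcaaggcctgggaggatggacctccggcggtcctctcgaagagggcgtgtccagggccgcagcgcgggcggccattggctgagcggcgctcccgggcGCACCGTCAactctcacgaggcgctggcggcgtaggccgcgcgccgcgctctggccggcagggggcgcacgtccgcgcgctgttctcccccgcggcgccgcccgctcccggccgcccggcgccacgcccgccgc
Read 5' to 3' on its own strand, the motif was TGACCACGC for Sod1, TGACAAAGC for Txnrd1, TGACTCAGC for Prdx1 and TGACGGTGC for Gclm. As printed on the plus strand, the capitals began 56, 92, 133 and 134 bases before the annotated start used for these genes. For Txnrd1 that start lies inside the gene's span (82833951 to 82897712) and is not its first base. The same holds for Prdx1 and Sod1, whose spans begin at 116685544 and 90220754, before the printed stretches end. The Prdx1 match contains the AP-1 sequence TGACTCA, a shorter overlapping motif. Sod1 and Prdx1 had a variance index of 1.70 and 1.38, while Txnrd1 had 2.98, and Gclm had 19 counts, under the minimum for the index. The windows of Prdx2 and Gpx4 held no match.

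Of a list of 50 genes that work with the antioxidant families, 42 had a count, beside 29.8% of all genes and 49.8% of protein-coding genes. Counts in every cell were found for 4, beside 1.5% and 2.89%. The 6 with the highest median level were Fth1, Nfe2l2, Slc3a2, Mgst3, Glo1 and Selenow. Fth1, the ferritin heavy chain that stores iron, had 9, 32, 60, 78, 11 and 4 counts in cells 1 to 6, with a median of 709 CPM. Nfe2l2, which encodes NRF2, had 6, 3, 66, 27, 10 and 2 counts and a median of 444 CPM, with cell 2 lowest at 87.0 CPM. Slc3a2, a subunit of the cystine transporter, had a median of 233 CPM, and Mgst3, a microsomal transferase, of 223 CPM. Glo1, which uses glutathione to clear methylglyoxal, had 209 CPM, and the selenoprotein Selenow 175 CPM.

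Fth1 was highest in cell 4 with 1281 CPM and lowest in cell 6 with 341 CPM. Red blood cell markers were also highest in cell 4 and lowest in cell 6, and their part in the Fth1 level was not tested. Nfe2l2 was highest in cell 1, with 697 CPM (256 to 1516), where Hmox1 had no count. The cells with Hmox1 counts, cells 3 and 2, had 539 CPM (417 to 685) and 87.0 CPM (17.9 to 254) of Nfe2l2. Keap1, which holds NRF2 in check, was found in the deepest libraries, 8 times in cell 3 and once in cell 4. Keap1, Gsr and Ccs were named after their values were seen.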

How the data were processed

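The authors deposited raw counts per gene symbol, 55341 genes in 6 columns with 1 column per cell, and no column was left unused. Per the labels' protocols, CEL-Seq2 libraries carried unique molecular identifiers and only read 2 was aligned. Per the submitters' processing notes, CASAVA, Bowtie2 2.3.4, HTSeq and the build mm10 were used, in roles not stated. Strand setting, treatment of multiply aligned reads and collapsing of identifiers are steps that the sources used here do not give, so a count may be a molecule or a read.

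CPM over all genes were computed with Python 3.11.15, pandas 2.3.3 and scipy 1.17.1. Intervals are exact 95% Poisson intervals for levels and exact conditional (Clopper-Pearson) intervals for ratios between cells, and they cover counting error only. Ratios were computed for all pairs of cells of the named genes, on library totals and not under the other scalings. The limits make no allowance for picking the pairs that are given. A fold against a cell at 0 is taken over a floor of 3 counts in that library. It leaves out the counting error of the higher cell and is no lower bound of the ratio. Each cell was set against the average of the remaining 5 on a log2 scale after adding 10 CPM, for genes averaging 100 CPM or more. Statistics were checked on simulated data. Gene positions and types are from GENCODE M21 of GRCm38, in which all 55341 symbols were found. Sequence sharing was measured as the share of 50-base windows in the last 600 bases of a gene's transcripts that occur in transcripts of another gene.

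The named genes are the members with at least 20 counts in all or 10 in 1 cell, and the sustentacular and gland members with a count. Further members are named to account for the list, chosen after their values were seen. The members and lists were chosen with earlier results of these data known. Alternatives were edgeR 4.0.16 TMM scaling, DESeq2 1.42.0 size factors, totals without mitochondrial genes, other pseudocounts, filters and detection limits, thinning and each cell left out.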

Additional observations from a re-analysis of the deposited data

Results flagged for a closer look

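Chance flags about 1 in 20 groups by Dixon's limit for a single far value, if values are independent, normal and of equal spread. Here 5 of 27 values over the 6 cells passed it. The libraries differ in depth and the sums contain genes that were also tested singly. That rate is therefore no measure of how many flags were due here. Prdx2 was flagged because cell 6 (682 CPM, 8 counts) stood far above the next cell (133 CPM), with a gap of 0.805 of the whole range. Gclc was flagged for cell 5, with 444 CPM from 10 counts against 116 CPM in the next cell (0.739). The glutaredoxin sum was flagged for cell 6, with 768 CPM from 9 counts against 213 CPM (0.851). The sum of sustentacular and gland antioxidant genes was flagged for cell 2, with 725 CPM from 25 counts against 171 CPM (0.765). The thioredoxin and reductase sum was flagged for cell 1, which lay lowest at 232 CPM against 435 CPM (0.726) and rests on 2 counts. Cells 1 and 6 are the shallowest libraries, and depth was not tested as a source of these gaps.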

How the results depend on the processing

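The median sums of all antioxidant genes and of the neuronal list stayed within 1 SD over cells under the 3 other scalings, under the 3 choices of members fixed earlier, and in cells with at least 20000 counts. For the sustentacular and gland list the SD (258 CPM) exceeds the median (127 CPM), so that 1 SD is no measure of stability, and its median lay between 107 and 140 CPM under these settings. With each cell left out, the 3 medians ranged from 3166 to 3382 CPM, 2090 to 2146 CPM and 122 to 131 CPM. Added after the data were seen, counting Gm8566 with Sod1 and Gpx4-ps2 with Gpx4 gave 4003 CPM for all antioxidant genes. Leaving out members that overlap another gene, also added then, gave 1682 CPM and, for the neuronal list, 1106 CPM. Sod1, Txnrd1, Prdx2, Prdx5 and Hmox2 are among the members then lost. The number of members in all 6 cells was 1 at 3 counts, 0 at 10 counts, 1 after thinning and 14 in cells 2 to 5 alone. The number in at least 1 cell was 16 at 10 counts. The median log2 ratios of members depended on the settings. With TMM they were -0.88, 0.12, 0.23 and -0.67 in cells 1, 2, 3 and 6, and with DESeq2 size factors -1.27, 0.42, 0.78, -0.33 and -2.42 in cells 1, 2, 3, 4 and 6. With a mean of at least 10 CPM they were -1.57, -0.66 and -1.87 in cells 1, 4 and 6, and without a filter -0.92, 0.11, -0.66 and -1.11 in cells 1, 2, 4 and 6. The scalings moved all genes of a cell alike, by -0.65 to 0.54 (TMM) and -0.84 to 0.91 (DESeq2) on the log2 scale, and the cause of the shifts with the filter was not tested. Role group sums moved with the choice of members. With mostly unique 3' ends alone the peroxidase sum was 12.2 CPM in place of 176 CPM, since Gpx4 is then lost, and without members overlapping another gene the synthesis sum was 53.1 CPM in place of 171 CPM. No paired analysis was possible because all cells form 1 group.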

Other observations

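Several rows next to the family were left out by name. Besides Gpx4-ps2 with 80 counts, Txn-ps1 had 4 counts, Gstp-ps 2, and Gstm2-ps1, Prdx2-rs3 and Prdx6b 1 each. Pseudogenes with other names that share 3' sequence with a member also had counts: Gm8566 (Sod1) had 87, Gm21399 and Gm7204 (Prdx1) had 9 and 8, and Tdpx-ps1 (Prdx2) had 7, of which 6 were in cell 3. Added to their parents, Gm8566 and Gpx4-ps2 would make up 40.3% and 55.2% of the counts.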
